A study of Mus musculus with 24 samples.

Results

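The genes described here are 9 regulators of the step from neural progenitor to neuron: *Neurog1*, *Neurog2*, *Neurod1*, *Neurod4*, *Eomes*, *Insm1*, *Btg2*, *Myt1* and *Hes6*. They were taken by name, and all 9 were found by symbol among the 26411 genes of the count files. Their messenger RNA was followed in neural stem and progenitor cells (NSPCs), grown from the dorsal telencephalon of C57BL/6 mouse embryos at E12.5, the tissue that becomes the cerebral cortex. The embryos came from crosses of heterozygotes for a *Kat6a* null allele, in which exons are deleted and translation stops early in the catalytic domain; *Kat6a* encodes a histone acetyltransferase. There were 3 genotypes, *Kat6a*+/+, *Kat6a*+/- and *Kat6a*-/-. Each was grown for 3 days in 2 conditions, either as proliferating neurospheres with FGF2 and EGF or differentiating, without these factors, in serum on poly-L-ornithine and laminin. Each of the 6 groups had 4 libraries, each from the cells of 1 embryo, and by their labels the cells of 6 embryos were sequenced in both conditions. *Kat6a*+/+ replicate 2 carries litter number 4346 in proliferating and 4364 in differentiating NSPCs with the same embryo number; the labels were kept as given, and whether the 2 libraries share an embryo is not known.

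In the embryonic cortex, radial glia divide to give intermediate progenitors, which divide again to give neurons. Proneural transcription factors of the basic helix-loop-helix (bHLH) family, such as the neurogenins, start this step by switching on Notch ligands and later factors. Notch signalling between neighbouring cells and the ID proteins hold it back, and *Eomes* (also called *Tbr2*) marks the intermediate progenitors.

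Total counts per library ranged from 7826660 to 40838203. A floor of 3 counts corresponded to between 0.0758 and 0.387 CPM (counts scaled to a library total that is the same for all libraries), and such floors cover counting error only. *Kat6a* itself was at 395 ± 16.8, 353 ± 16.5 and 355 ± 24.6 CPM in proliferating *Kat6a*+/+, *Kat6a*+/- and *Kat6a*-/- NSPCs (SD, n = 4) and at 267 ± 24.2, 236 ± 17.9 and 191 ± 43.2 CPM in differentiating NSPCs. It was called lower in differentiating *Kat6a*-/- than in *Kat6a*+/+ (log2 fold change -0.69, FDR 3.33e-05) and *Kat6a*+/- NSPCs (-0.49, FDR 0.00261) by limma-trend. In proliferating *Kat6a*-/- NSPCs it was not called by limma-voom (FDR 0.1 and 0.707). Since only some exons are deleted, this gene-level count does not check the genotype labels. Markers of radial glia were abundant in every group (summed level 6880 to 13800 CPM), and *Pax6*, a factor of cortical radial glia, was at 42.2 ± 1.94 CPM in proliferating *Kat6a*+/+ NSPCs. *Olig2*, a bHLH factor of the oligodendrocyte lineage and of ventral progenitors, was at 976 ± 38.8 CPM in the same libraries. RNA was extracted with a different kit in each condition, so condition and kit cannot be told apart.

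The 9 genes lie on 6 chromosomes of GRCm39 and span single-exon to many-exon genes (GENCODE vM39). *Neurog1* (chr13:56398291-56399976, minus strand) and *Insm1* (chr2:146063841-146066940, plus strand) have 1 exon. *Neurog2* (chr3:127426448-127429280, plus), *Neurod1* (chr2:79282865-79287294, minus), *Neurod4* (chr10:130104021-130116132, minus) and *Btg2* (chr1:134002908-134015033, minus) have 2 exons. *Hes6* (chr1:91339204-91342103, minus) has 4 exons, *Eomes* (chr9:118307280-118315200, plus) has 6 and *Myt1* (chr2:181405125-181469590, plus) has 22. *Neurod1*, *Eomes*, *Btg2* and *Hes6* overlap long noncoding genes on the opposite strand, and *Neurod1* also overlaps *Cerkl* on its own strand. The libraries were stranded, but the strand setting of the counting is not given in the sources used here, so a share of antisense reads in these 4 genes was not tested.

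Promoter sequences are shown for *Eomes* and *Myt1*, both far lower in differentiating *Kat6a*-/- than *Kat6a*+/+ NSPCs. Their upstream windows lie outside the annotated span of the gene itself. The 250 bases before the first start site (RefSeq, table build GRCm38.p6, placed on GRCm39 by an exact match) lie at chr9:118307007-118307256 (plus strand, 46.4% GC) and at chr2:181404875-181405124 (plus strand, 54.8% GC). Capitals mark the only motif found of those searched.
Eomes: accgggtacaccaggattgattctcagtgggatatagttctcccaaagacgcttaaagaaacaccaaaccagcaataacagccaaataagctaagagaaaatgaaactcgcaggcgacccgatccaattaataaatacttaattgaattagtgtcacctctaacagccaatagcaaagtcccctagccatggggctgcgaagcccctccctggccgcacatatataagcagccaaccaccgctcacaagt
Myt1: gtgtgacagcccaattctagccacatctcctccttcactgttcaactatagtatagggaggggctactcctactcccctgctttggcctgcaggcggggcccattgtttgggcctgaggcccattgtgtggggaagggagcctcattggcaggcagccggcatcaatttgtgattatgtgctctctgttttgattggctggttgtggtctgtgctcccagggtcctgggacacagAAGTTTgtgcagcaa
The motifs were searched on both strands as letters. All start sites of a member were searched, and a member counts if any of its promoters held the motif, whereas the shares of all are per promoter. Counted per promoter, the E-box CANNTG was in 5 of the 12 promoters of members. The E-box and RBPJ matches of *Myt1* lie before other start sites than the one shown. The E-box CANNTG, bound by bHLH factors, was in 66.2% of all 32851 promoters of the table and in those of 3 of the 8 members that have an entry. Its form CAGATG, which CANNTG includes, was in 14.4% of all promoters and in none of the members'. The RBPJ core TGGGAA was in 21.6% and in those of 2 members, the HES site CACGNG in 23.5% and in those of 4 members, and the T-box motif GGTGTG in 16.3% and in those of 2 members. The MYT1 core AAGTTT was in 12.8% of all promoters and, among the members, in that of *Myt1* alone. A match is a run of letters in this window and says nothing about binding.

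Proliferating NSPCs expressed *Hes6* and *Btg2* most among the 9 genes and the neurogenins hardly at all. Per transcript length, in RPKM (CPM divided by the length in kilobases), *Hes6* was at 41 ± 5.95, *Btg2* at 18.7 ± 4.04, *Myt1* at 4.36 ± 0.909 and *Insm1* at 2.64 ± 0.26 in *Kat6a*+/+ NSPCs, and the libraries of neighbours in this order did not overlap. *Eomes* (0.203 ± 0.0561 RPKM), *Neurod1* (0.119 ± 0.15), *Neurod4* (0.0379 ± 0.0344) and *Neurog2* (0.0199 ± 0.0269) followed with overlapping libraries, and *Neurog1* had no count in any of the 24 libraries. The neurogenins, the defining proneural factors of the dorsal telencephalon, were thus near 0 in these cultures, while *Olig2* was abundant. In proliferating *Kat6a*+/+ libraries the oligodendrocyte lineage markers, *Olig2* among them, summed to 2290 to 2730 CPM. The 8 ventral telencephalon markers summed to 4.63 to 9.05 CPM.

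In differentiating *Kat6a*+/+ NSPCs the order of RPKM levels changed, and *Insm1* stood beside *Btg2*. *Hes6* was at 89.3 ± 20.8, *Insm1* at 38.7 ± 18.9 and *Btg2* at 32.1 ± 6.59 RPKM, with *Insm1* and *Btg2* overlapping between libraries. *Eomes* (5.41 ± 2.02 RPKM), *Myt1* (2.03 ± 1.07), *Neurog2* (0.517 ± 0.398) and *Neurod1* (0.118 ± 0.109) came next, each overlapping its neighbour. In differentiating *Kat6a*-/- NSPCs *Hes6* (38.8 ± 5.41 RPKM) and *Btg2* (35.3 ± 18.9) overlapped, while *Insm1* was at 2.54 ± 1.38, *Eomes* at 0.304 ± 0.165 and *Myt1* at 0.157 ± 0.163 RPKM.

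**Figure D1:**
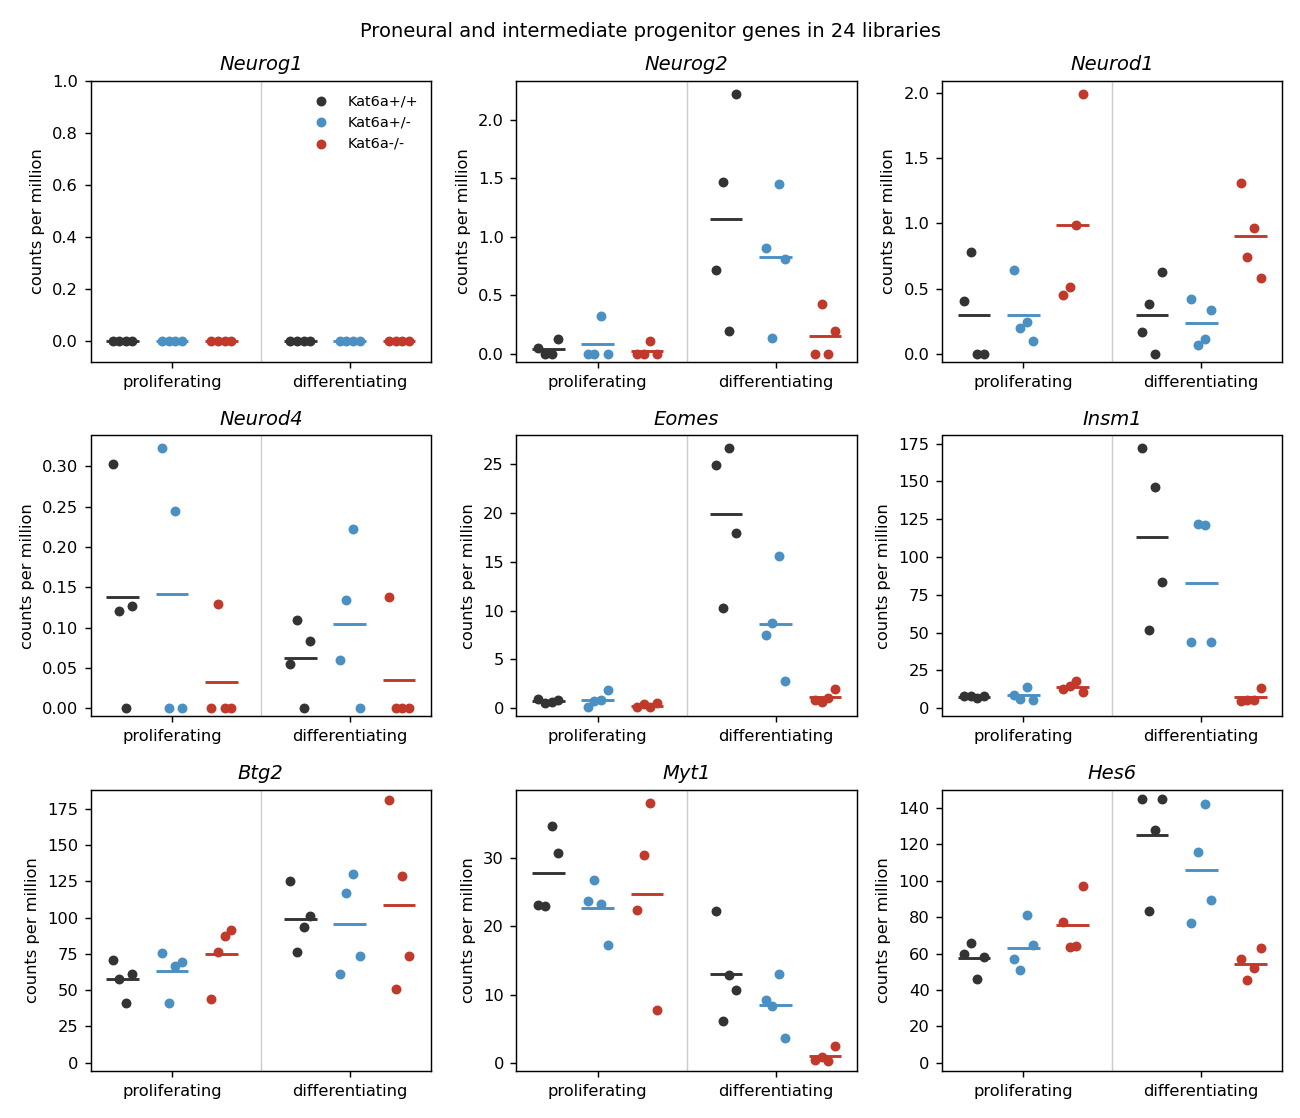
CPM (linear axis, one panel per gene with its own scale) of the 9 genes in each of the 24 libraries, as points coloured by genotype, with a line at the mean of each group of 4. The differentiating Kat6a-/- libraries of Eomes (0.637 to 2 CPM), Insm1 (5.02 to 13.4), Myt1 (0.241 to 2.52) and Hes6 (45.3 to 63.2) sit below all Kat6a+/+ libraries, and Neurog1 is at 0 throughout.

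The first question was how loss of *Kat6a* altered these genes in dividing cells. Of the 9 genes, 4 passed the filter on low counts in proliferating NSPCs, and 1 of these 4 was called higher in *Kat6a*-/- than in *Kat6a*+/+ NSPCs at a false discovery rate (FDR) under 0.05 in the limma-voom fit, where 16.2% of the 12276 tested genes were called higher and 13.8% lower. Read against that share, the count of members called is no result about the group. The called gene was *Insm1*, which encodes a zinc finger factor that drives progenitors from the apical surface into the basal, intermediate progenitor state.

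*Insm1* was at 8.42, 7.94, 6.64 and 7.86 CPM in the 4 proliferating *Kat6a*+/+ libraries and at 14.8, 18.3 and 10.5 CPM in *Kat6a*-/- replicates 2, 3 and 4, with replicate 1 between the last and the first of these. Every *Kat6a*-/- library stood above every *Kat6a*+/+ library, as did 13.7% of tested genes. The fitted log2 fold change was 0.87 (SE 0.22, FDR 0.0105, 95% interval 0.4 to 1.35). Within the litters that held both genotypes the difference had the same direction, with log2 differences of 1.02 in litter 4633 (2 *Kat6a*-/- libraries against 1) and 1.20 in litter 4746 (1 against 1). *Kat6a*+/- libraries were at 8.45, 6.32, 14.3 and 5.66 CPM, so 3 of 4 lay below all *Kat6a*-/- libraries and the remaining library, replicate 3, lay within their range. The log2 fold change of *Kat6a*-/- against *Kat6a*+/- NSPCs was 0.71 (FDR 0.0539), and without that library it was 1.00 (FDR 0.00472). *Insm1* was called here in 2 of 22 alternatives (FDR up to 0.139).

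*Btg2*, an antiproliferative gene switched on in progenitors that are about to make neurons, was at 70.8, 57.5, 41 and 61.5 CPM in proliferating *Kat6a*+/+ libraries and at 44, 76.5, 87.1 and 91.6 CPM in *Kat6a*-/- libraries. The groups overlapped, since the first *Kat6a*-/- library lay among the *Kat6a*+/+ values, and the log2 fold change was 0.44 (FDR 0.14, interval -0.03 to 0.9). Without this library it was 0.63 (FDR 0.0233), the only 1 of 22 alternatives in which *Btg2* was called (FDR up to 0.463). *Hes6*, a HES family member that opposes HES1 and favours neuronal commitment, was at 59.7, 66.1, 46.1 and 58.2 CPM against 77.6, 63.4, 64.3 and 97.2 CPM. Its *Kat6a*-/- values overlapped the upper *Kat6a*+/+ values (log2 fold change 0.41, FDR 0.0728, interval 0.06 to 0.77). It was called in 1 of 22 alternatives (FDR up to 0.234), the fit without *Kat6a*+/- replicate 3 (0.43, FDR 0.0179).

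*Myt1*, a zinc finger factor that represses progenitor genes in cells turning into neurons, was at 23.1, 23, 34.7 and 30.7 CPM in proliferating *Kat6a*+/+ and at 22.4, 30.5, 38.1 and 7.78 CPM in *Kat6a*-/- libraries. The last *Kat6a*-/- library was low and the other 3 lay close to the *Kat6a*+/+ range. The log2 fold change of -0.31 (FDR 0.47, interval -0.99 to 0.37) did not hold its sign when single libraries were left out.

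The remaining 5 genes were too low to be tested in proliferating NSPCs. *Eomes* was at 0.961, 0.541, 0.604 and 0.888 CPM in *Kat6a*+/+ libraries, at 0.161, 0.702, 0.816 and 1.86 CPM in *Kat6a*+/- libraries and at 0.113, 0.387, 0.11 and 0.499 CPM in *Kat6a*-/- libraries. The *Kat6a*-/- libraries held 10 counts in all, against 60 in *Kat6a*+/+ libraries, of which 38 were in replicate 1, the deepest library. All *Kat6a*-/- values were below all *Kat6a*+/+ values, without a test. *Neurod1*, a bHLH factor of maturing neurons, was at 0.297 ± 0.375 CPM in *Kat6a*+/+ and 0.987 ± 0.712 CPM in *Kat6a*-/- libraries, with 29 and 37 counts in all. *Neurog2*, the main neurogenin of the cortex, had 3, 4 and 1 counts summed over the 4 libraries of *Kat6a*+/+, *Kat6a*+/- and *Kat6a*-/- NSPCs. Its mean levels were 0.0444, 0.0816 and 0.0274 CPM. *Neurod4*, a bHLH factor close to *Neurod1*, had 15, 7 and 1 counts, at mean levels of 0.138, 0.142 and 0.0322 CPM. Of its 15 counts, 12 were in the deep *Kat6a*+/+ replicate 1.

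Markers of other states also differed in these libraries, in which 16.2% of all tested genes were called higher and 13.8% lower. Of 10 markers of dividing cells, 5 were lower in *Kat6a*-/- than in *Kat6a*+/+ proliferating NSPCs (summed level 1790 to 3190 against 3220 to 3610 CPM), and 4 of 5 tested astrocyte markers were higher (334 to 447 against 131 to 172 CPM). *Gfap*, the defining astrocyte marker, stayed at 6.57 CPM or less. Radial glia markers were lower in 4 of 8 and higher in 2 (6880 to 8280 against 7680 to 8540 CPM), and neuron markers were lower in 3 of 8 tested and higher in 1 (1190 to 1320 against 960 to 1240 CPM). The part of these markers in the difference of *Insm1* was not tested.

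*Kat6a*+/- NSPCs were then compared with *Kat6a*+/+ NSPCs. In proliferating cells limma called 0 of the 4 tested members and 0% of all genes, with 912 genes and 0 members at an unadjusted p under 0.05. The other fits and tools called between 0 and 28 genes and 0 members. The log2 fold changes were 0.17 for *Insm1*, 0.19 for *Btg2*, -0.14 for *Myt1* and 0.13 for *Hes6*. Between *Kat6a*-/- and *Kat6a*+/- NSPCs 0 of 4 members were called, against 14.8% of tested genes, with 1 member at an unadjusted p under 0.05, and edgeR and DESeq2 also called 0 members. Without *Kat6a*+/- replicate 3, 2 members were called, *Insm1* and *Hes6* (0.46, FDR 0.039). For *Hes6* this was the only 1 of 22 alternatives with a call.

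In differentiating *Kat6a*+/+ NSPCs most of these genes were higher than in proliferating cells. Of the 7 members tested in the fit of all 24 libraries, 6 were called (5 higher, 1 lower), where 73.0% of 13586 genes were called (36.7% higher, 36.3% lower), so the share called in either direction was close to that of all genes. *Eomes* rose from 0.748 ± 0.207 to 19.9 ± 7.46 CPM (log2 fold change 4.57, SE 0.72, FDR 8.46e-06) and *Insm1* from 7.71 ± 0.758 to 113 ± 55.3 CPM (3.68, SE 0.52, FDR 1.85e-06). *Neurog2* rose by 3.74 (SE 1.00, FDR 0.00217) from near 0 to 1.15 ± 0.887 CPM, *Hes6* by 1.09 (FDR 6.53e-05) and *Btg2* by 0.76 (FDR 0.0461). The *Btg2* call was lost in 9 of 34 alternative fits (FDR up to 0.113). *Myt1* was the exception and fell by 1.16 on the log2 scale (FDR 0.00689), from 27.9 ± 5.82 to 13 ± 6.82 CPM.

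*Kat6a*+/- NSPCs showed the same directions, with 5 of 7 members called, 4 higher and 1 lower (69.7% of all genes, 35.4% higher and 34.2% lower). *Eomes* rose by 3.48 (FDR 0.00137), *Insm1* by 3.13 (FDR 1.07e-04), *Neurog2* by 3.13 (FDR 0.0137) and *Hes6* by 0.72 (FDR 0.00377), and *Myt1* fell by 1.50 on the log2 scale (FDR 0.00675). *Btg2* gave 0.55 (FDR 0.152). The interaction of condition with the *Kat6a*+/- genotype was called for 0 of 7 members by limma (0% of all genes, 412 genes and 0 members at an unadjusted p under 0.05) and for 0 members in every alternative fit, including edgeR and DESeq2.

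In *Kat6a*-/- NSPCs 1 of 7 members was called between conditions, lower, while 69.3% of all genes were called and 33.5% were lower. That gene was *Myt1*, which fell by 4.84 on the log2 scale (SE 0.97, FDR 1.61e-04), from 24.7 ± 13 to 1.01 ± 1.04 CPM. *Eomes* went from 0.277 ± 0.197 to 1.12 ± 0.607 CPM (log2 fold change 1.85, FDR 0.202) and *Insm1* from 14 ± 3.36 to 7.41 ± 4.03 CPM (-1.02, FDR 0.202). *Hes6* went from 75.6 ± 15.8 to 54.5 ± 7.59 CPM (-0.47, FDR 0.0509), which was called in 16 of 34 alternative fits.

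The difference between these responses was tested as the interaction of condition and the *Kat6a*-/- genotype. It was called for 3 of 7 members, all negative, where 13.9% of all genes were called (7.58% negative). The estimates were -4.69 for *Insm1* (SE 0.87, FDR 0.00119), -3.68 for *Myt1* (SE 1.03, FDR 0.021) and -1.56 for *Hes6* (SE 0.29, FDR 0.00132). The *Myt1* interaction had an FDR of 0.0612 without differentiating *Kat6a*-/- replicate 3. *Eomes* had an estimate of -2.72 with a wide error (SE 1.46, FDR 0.22, called in 2 of 34 alternative fits), and *Btg2* had an estimate of -0.34 (FDR 0.68).

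The 6 embryos labelled as sequenced in both conditions, 2 of them *Kat6a*+/+, gave the same comparison within embryos. *Insm1* rose by 4.33 and 4.43 on the log2 scale in the *Kat6a*+/+ embryos and by 1.61 in the *Kat6a*+/- embryo, whereas the *Kat6a*-/- embryos gave -1.36, -1.71 and 0.36. *Eomes* rose by 4.52 and 5.19 in *Kat6a*+/+, by 3.02 in *Kat6a*+/- and by 0.57, 2.26 and 1.76 in *Kat6a*-/- embryos. Both genes therefore rose less in each *Kat6a*-/- embryo than in either *Kat6a*+/+ embryo. *Hes6* gave 1.28 and 1.48, then -0.08, then -0.48, -0.30 and -0.62. *Myt1* gave -0.05 and -1.43 in *Kat6a*+/+, -1.33 in *Kat6a*+/- and -4.97, -6.68 and -1.58 in *Kat6a*-/- embryos, of which the last was close to the *Kat6a*+/+ values. *Btg2* gave 0.82 and 1.18 in *Kat6a*+/+, -0.12 in *Kat6a*+/- and -0.58, 0.57 and -0.31 in *Kat6a*-/- embryos. It too was lower in each *Kat6a*-/- embryo than in either *Kat6a*+/+ embryo, but its interaction over all libraries was not called (FDR 0.68).

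**Figure D2:**
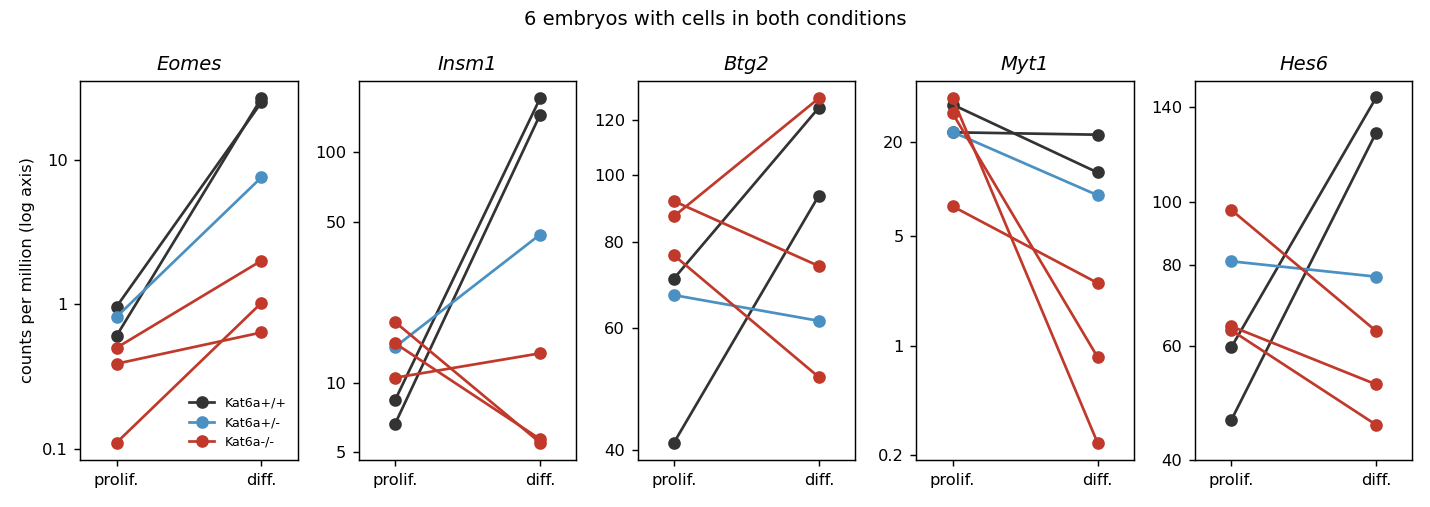
CPM (log axis, own scale per gene) of 5 members in proliferating and differentiating cells of the 6 embryos sequenced in both conditions, with a line joining the libraries of an embryo, coloured by genotype. The Kat6a+/+ lines of Eomes, Insm1 and Hes6 climb, those of Kat6a-/- climb less or fall, and the Myt1 lines of Kat6a-/- embryos fall, with log2 differences from -1.58 to -6.68.

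*Eomes*, *Insm1*, *Myt1* and *Hes6* were lower in differentiating *Kat6a*-/- than in *Kat6a*+/+ NSPCs, the first 3 by more than 10-fold in mean CPM. Of 7 members tested, limma-trend called 6 between *Kat6a*-/- and *Kat6a*+/+ NSPCs, 5 lower and 1 higher, where 54.4% of 13339 genes were called (27.7% lower, 26.7% higher). In 4 of the 7, all lower, no *Kat6a*-/- library reached a *Kat6a*+/+ library, against 14.7% of all genes lower in this way. The number of calls over all genes depended on single libraries. Without *Kat6a*-/- replicate 3 or without replicate 1 the fit called 939 or 1212 genes (6.99% or 9.01%) in place of 7258. Of the weight given to the *Kat6a*-/- group, 69% went to replicate 3 and 16.8% to replicate 1. In both of the fits without 1 of these libraries 4 members were still called, *Eomes*, *Insm1*, *Myt1* and *Hes6*. These RNA levels come from whole cultures, in which fewer cells of a type and less RNA per cell cannot be told apart.

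*Eomes*, which encodes the T-box factor that marks intermediate progenitors, was at 24.9, 10.3, 26.6 and 17.9 CPM in differentiating *Kat6a*+/+ libraries and at 0.826, 0.637, 1.02 and 2 CPM in *Kat6a*-/- libraries. The groups were far apart, with a ratio of mean CPM of 17.8. The log2 fold change was -4.29 (SE 0.35, FDR 3.25e-06, interval -5.04 to -3.53). The *Kat6a*-/- level was still above the floor of 3 counts, at 12 to 31 counts a library.

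*Insm1* was at 172, 51.7, 146 and 83.3 CPM in differentiating *Kat6a*+/+ libraries and at 5.02, 5.68, 5.48 and 13.4 CPM in *Kat6a*-/- libraries. The fourth *Kat6a*-/- library was the highest of its group and still well below the lowest *Kat6a*+/+ library. Mean CPM differed by a ratio of 15.3, and the log2 fold change was -4.44 (SE 0.38, FDR 4.16e-06, interval -5.26 to -3.62). *Insm1* was thus higher in proliferating and lower in differentiating *Kat6a*-/- NSPCs, the difference that the interaction test called.

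*Myt1* was at 22.3, 6.17, 12.8 and 10.7 CPM in *Kat6a*+/+ libraries and at 0.413, 0.849, 0.241 and 2.52 CPM in *Kat6a*-/- libraries. As for *Insm1*, the fourth *Kat6a*-/- library was the highest and the groups did not overlap. The log2 fold change was -4.94 (SE 0.48, FDR 8.97e-06, interval -5.98 to -3.91), while the ratio of mean CPM was 12.9, a smaller difference than the fitted one, in which the low replicate 3 carries the most weight. *Hes6* was at 145, 83.2, 128 and 145 CPM against 57.1, 45.3, 52.3 and 63.2 CPM. It too separated the groups, with a log2 fold change of -1.29 (SE 0.17, FDR 6.18e-05, interval -1.65 to -0.93).

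Within litters 4633 and 4746, which held both genotypes, these 4 genes differed in the same direction. The log2 differences were -4.96 and -3.96 for *Eomes*, -4.73 and -3.89 for *Insm1*, -4.15 and -4.86 for *Myt1* and -1.33 and -1.47 for *Hes6*. With litter as a fixed term all 4 were still called, with log2 fold changes of -4.43, -4.35, -4.67 and -1.38.

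*Btg2* stood apart from these genes. It was at 125, 76.5, 93.3 and 101 CPM in differentiating *Kat6a*+/+ libraries and at 181, 51, 129 and 73.8 CPM in *Kat6a*-/- libraries, which ranged on both sides of the *Kat6a*+/+ values. The log2 fold change was 0.25 (SE 0.25, FDR 0.414, interval -0.29 to 0.79), and its sign turned to -0.01 without library weights.

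The neurogenic bHLH factors were near the detection limit in differentiating cells too. *Neurog2* had 13, 27, 4 and 53 counts in *Kat6a*+/+ libraries (0.193 to 2.22 CPM) and 0, 8, 0 and 3 counts in *Kat6a*-/- libraries (up to 0.425 CPM). Its values overlapped, and it was called lower (log2 fold change -2.42, SE 0.62, FDR 0.00573), a call lost in 6 alternatives, among them edgeR (FDR 0.0605) and the fits without *Kat6a*-/- replicate 1 (-1.50, FDR 0.502) or 3 (-1.23, FDR 0.632). *Neurod1* went the other way, with 3, 7, 0 and 15 counts in *Kat6a*+/+ and 19, 14, 16 and 9 counts in *Kat6a*-/- libraries. These overlapped slightly (0 to 0.629 against 0.581 to 1.31 CPM), and the call (log2 fold change 2.12, SE 0.54, FDR 0.00556) was lost in 7 alternatives, among them edgeR (FDR 0.134), DESeq2 (FDR 0.119) and the fits without *Kat6a*-/- replicate 1 (FDR 0.309) or 3 (FDR 0.349). *Neurod4* had at most 4 counts in any differentiating library and *Neurog1* had 0, so neither was tested.

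**Figure D3:**
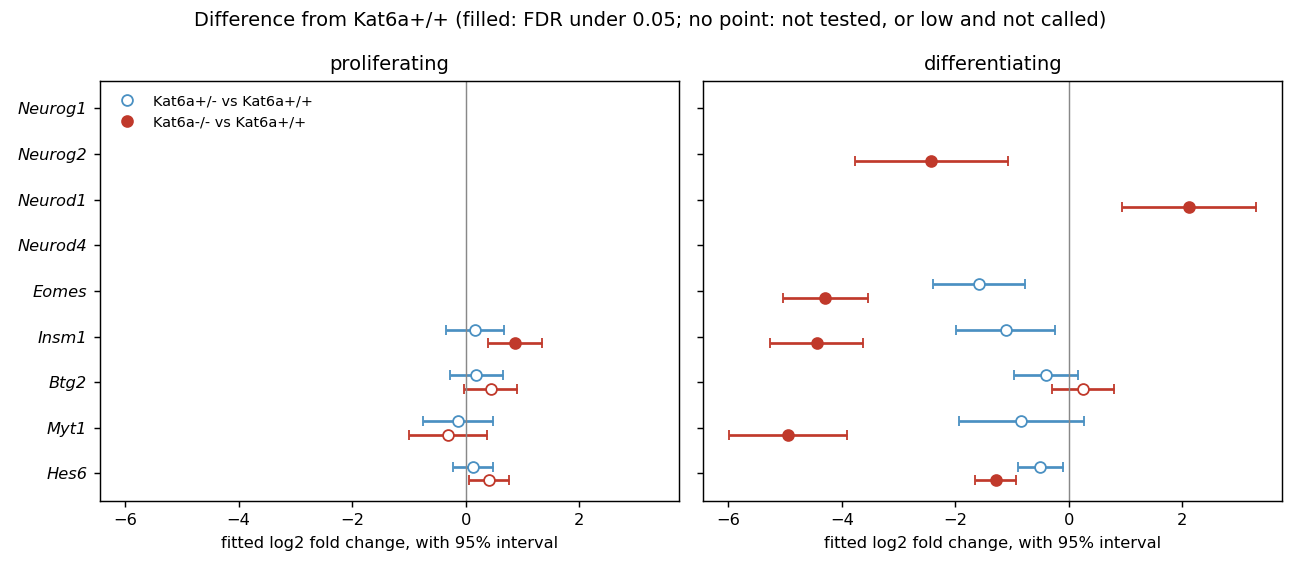
Fitted log2 fold changes from Kat6a+/+ (x axis) with 95% intervals for the 9 genes in proliferating (left) and differentiating (right) NSPCs, Kat6a+/- in blue and Kat6a-/- in red, filled where the FDR was under 0.05. No point is drawn where a gene was not tested, or was low and not called; in differentiating Kat6a-/- NSPCs Eomes (-4.29), Insm1 (-4.44) and Myt1 (-4.94) lie far left, Hes6 (-1.29) less so, Neurod1 (2.12) lies right and Btg2 (0.25) crosses 0.

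Differentiating *Kat6a*+/- NSPCs lay between the other genotypes in the mean level of *Eomes*, *Insm1*, *Myt1* and *Hes6*, but limma called 0 of 7 members (0% of all genes), with 1926 genes and 3 members at an unadjusted p under 0.05. The other tools and fits of all libraries called at most 8 genes and 0 members. *Eomes* was at 7.54, 8.76, 15.6 and 2.76 CPM in *Kat6a*+/- libraries, overlapping *Kat6a*+/+ (log2 fold change -1.59, SE 0.37, FDR 0.163, interval -2.39 to -0.78). It was called in 2 of 22 alternatives, without *Kat6a*+/- replicate 3 (-1.74, FDR 0.0304) and without *Kat6a*+/+ replicate 2 (-1.71, FDR 0.0407). Each of these left out a library that made the groups overlap. *Insm1* was at 44, 122, 121 and 43.6 CPM (-1.11, FDR 0.267) and *Myt1* at 9.16, 8.36, 13 and 3.56 CPM (-0.84, FDR 0.456). *Hes6* was at 76.7, 116, 142 and 89.6 CPM (-0.50, FDR 0.266). It was called in 1 of 22 alternatives, without *Kat6a*+/- replicate 3 (-0.70, FDR 0.0391). *Btg2* was at 61.5, 117, 130 and 73.6 CPM (-0.40, FDR 0.499), inside the *Kat6a*-/- range.

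Against *Kat6a*+/- NSPCs, differentiating *Kat6a*-/- NSPCs were lower in 5 of 7 members (37.5% of all genes were called, 18.5% lower). The log2 fold changes were -2.70 for *Eomes* (FDR 6.17e-04), -3.33 for *Insm1* (FDR 3.04e-04), -4.10 for *Myt1* (FDR 3.61e-04), -0.79 for *Hes6* (FDR 0.00873) and -2.73 for *Neurog2* (FDR 0.0126). The libraries did not overlap for 5 of the 7 (16.2% of all genes), with *Eomes*, *Insm1*, *Myt1* and *Hes6* below and *Neurod1* above. The count of called members rested on single libraries, since 0 members were called without *Kat6a*-/- replicate 3 and 2 without replicate 1, where 243 and 345 genes were called in place of 5007. Over the 12 fits with a library left out the log2 fold changes ranged from -3.18 to -2.55 for *Eomes*, from -4.05 to -2.99 for *Insm1*, from -4.52 to -3.23 for *Myt1*, and from -1.19 to -0.59 for *Hes6*, and that of *Neurog2* was as small as -1.53.

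Markers of other states moved with the differentiating *Kat6a*-/- group, in which 26.7% of all tested genes were called higher and 27.7% lower. All 10 markers of dividing cells were lower than in *Kat6a*+/+ NSPCs (summed level 106 to 284 against 720 to 1220 CPM), and *Mki67*, which labels cycling cells, was at 24.2 ± 17.3 against 219 ± 54.2 CPM. The 10 were also called lower without *Kat6a*-/- replicate 1 or 3. Summed neuron markers overlapped (472 to 786 against 554 to 748 CPM, with 1 of 9 tested genes higher and 5 lower), and *Tubb3*, an early neuronal tubulin, was at 45.2 ± 12.4 against 72.3 ± 18.7 CPM. Radial glia markers were at 9340 to 13800 against 7250 to 9150 CPM (2 of 8 higher, 4 lower), astrocyte markers at 595 to 3930 against 769 to 1450 CPM (1 of 6 higher, 2 lower) and oligodendrocyte lineage markers at 649 to 1190 against 1190 to 1400 CPM (1 of 5 higher, 4 lower). Mesenchyme and meninges markers were at 131 to 824 against 210 to 583 CPM (4 of 5 tested higher), ventral telencephalon markers at 2.07 to 4.09 against 6.01 to 32.4 CPM (4 of 5 tested lower) and endothelium markers at 9.56 to 36.8 against 46.4 to 72.9 CPM (1 of 1 tested lower), while microglia markers summed to at most 1.51 CPM and were untested. Without *Kat6a*-/- replicate 3 the calls outside the dividing-cell list were 1 radial glia and 1 astrocyte marker higher and 2 neuron markers and 1 oligodendrocyte lineage marker lower. The part of these shifts in the falls of *Eomes*, *Insm1*, *Myt1* and *Hes6* was not tested.

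Other genes of the pathway were followed by lists that hold no member. Of all tested genes, 26.7% were called higher and 27.7% lower in differentiating *Kat6a*-/- against *Kat6a*+/+ NSPCs. In proliferating NSPCs these shares were 16.2% and 13.8%. List counts near these shares are no result about a list. Of 7 other proneural and neuronal bHLH factors, 2 were tested in differentiating NSPCs, of which 1 was lower in *Kat6a*-/-. *Olig2* was at 70.1 to 162 CPM in *Kat6a*-/- and at 179 to 258 CPM in *Kat6a*+/+ libraries (log2 fold change -0.71, FDR 0.0061, against a median of -0.02 over all genes), and it was not called without *Kat6a*-/- replicate 1 or 3. The other, *Bhlhe22*, gave -0.12 (FDR 0.838). In proliferating NSPCs *Olig2* alone was tested and gave 0.10 (FDR 0.168).

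The E proteins, which pair with proneural factors, and the ID proteins, which keep them from doing so, were all lower in differentiating *Kat6a*-/- NSPCs (7 of 7, median -0.74). Among them were *Tcf3* (-0.74, FDR 1.84e-05), *Id2* (-1.01, FDR 3.46e-05), *Id3* (-0.73, FDR 7.07e-05) and *Id4* (-1.61, FDR 1.49e-04). This count fell to 1 of 7, *Tcf3*, without *Kat6a*-/- replicate 1 or without replicate 3, and was 5 of 7 without library weights. In proliferating NSPCs *Id1* (1.50, FDR 0.00286) and *Id4* (1.30, FDR 0.0069) were higher and *Tcf3* (-0.32, FDR 0.00618) and *Tcf4* (-0.21, FDR 0.0222) lower in *Kat6a*-/-.

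Of the Notch ligands, receptors, modifiers and targets, 10 of 16 tested were lower and 4 higher in differentiating *Kat6a*-/- NSPCs (median -0.50). The Notch ligand gene *Dll1* (-2.82, FDR 1.41e-05), *Dll3*, whose product holds Notch back within the cell (-4.27, FDR 2.93e-05), the Notch target *Hes5* (-4.58, FDR 6.59e-06) and the feedback inhibitor *Nrarp* (-3.18, FDR 7.06e-06) had the smallest p-values. *Hes5* was at 33.7 ± 17.6 CPM in *Kat6a*+/+ and 1.92 ± 1.1 CPM in *Kat6a*-/- libraries. Of the 4 higher genes, the Notch ligand gene *Jag1* rose by 2.23 (FDR 3.89e-04) and *Hes1*, a Notch target, by 0.59 (FDR 0.0256). *Hes5*, *Nrarp*, *Dll1* and *Dll3* were among the 6 genes still lower without *Kat6a*-/- replicate 1 and the 5 without replicate 3, where none was higher. In proliferating NSPCs 4 of 15 were higher and 3 lower, with *Dll3* (1.03, FDR 0.00133), *Jag1* (0.55, FDR 0.0092) and *Notch2* (0.39, FDR 0.00487) up and *Dll1* (-0.53, FDR 8.84e-04) down. *Dll3* thus had opposite signs in the conditions, with an interaction of -4.77 (FDR 0.00681).

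Neuronal transition genes that follow the proneural factors were lower in 14 of 18 tested and higher in 2 in differentiating *Kat6a*-/- NSPCs (median -1.10). *Elavl4* (-3.98, FDR 8.56e-06) and *Elavl2* (-2.45, FDR 7.15e-06), which encode neuronal RNA-binding proteins, *Celsr3* (-3.15, FDR 3.07e-06), a cadherin of axon guidance, and *Sox4* (-1.29, FDR 1.03e-05) were lower, and all 4 were also called without *Kat6a*-/- replicate 1 or 3, where 8 or 7 of the list were lower and none higher. In proliferating NSPCs 6 of 13 were lower and 1 higher. *Sox11* (-0.46, FDR 0.00189), *Elavl2* (-0.68, FDR 0.0051) and *Tubb3* (-1.19, FDR 0.00694) were among those lower, and *Btbd17* was higher (1.30, FDR 2.14e-04).

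The relatives of the members, the BTG/TOB, INSM, MYT and HES families, were higher in 3 of 7 tested and lower in 2 in differentiating *Kat6a*-/- NSPCs (median 0.23). Read against the shares of all genes, these counts are no result about the families. In these differentiating cells *Btg3* (0.57, FDR 0.0242) and *Hes1* (0.59, FDR 0.0256) were higher and *Tob2* (-0.26, FDR 0.00206) lower. None of these 3 was called without *Kat6a*-/- replicate 1 or 3, where *Hes5*, which also counts among the Notch targets, was the only relative called. In proliferating NSPCs the median of the relatives was -0.22 over 6 tested genes, and the smallest FDR was 0.199, for *Hes5*.

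**Figure D4:**
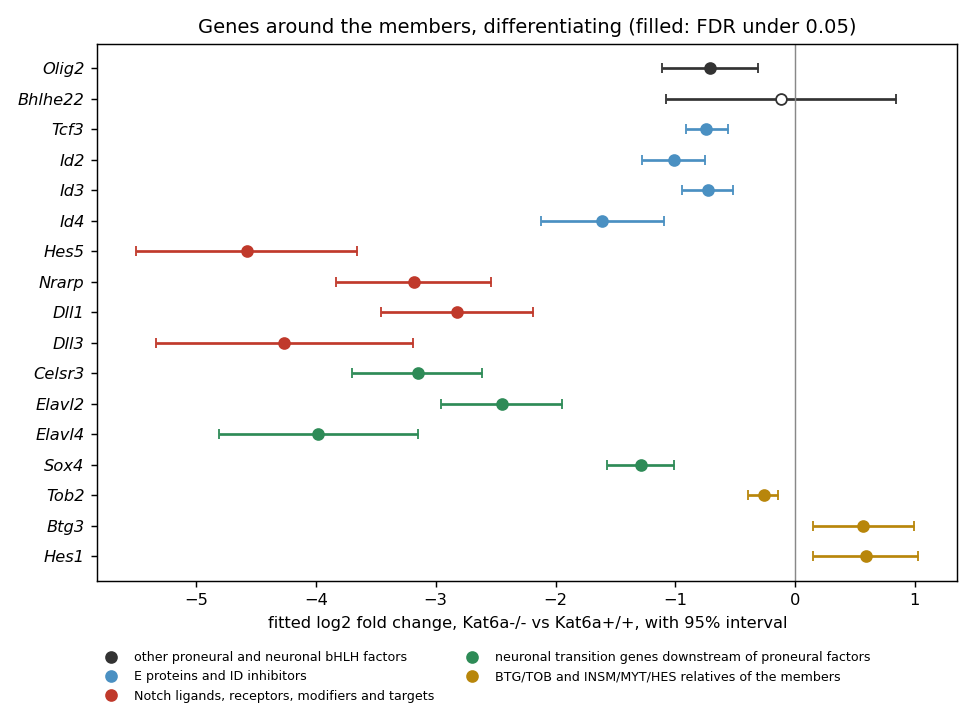
Fitted log2 fold changes of differentiating Kat6a-/- against Kat6a+/+ NSPCs (x axis) with 95% intervals for the genes of each pathway list with the smallest p-values, none of them among the 9, coloured by list and filled where the FDR was under 0.05. The genes drawn in the colours of the Notch and neuronal transition lists reach from -1.29 (Sox4) to -4.58 (Hes5), and Btg3 (0.57) and Hes1 (0.59) lie right of 0.

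Profiles over the 24 libraries were compared by the root mean square difference of log2 CPM after centring, a description that carries the shared split by condition. Among the genes nearest to the mean profile of the 7 tested members, whose SD was 0.77, were *Ypel1* (0.30), *Sox4* (0.34), *Tmem198* (0.38) and *Mycl* (0.39). For single members the nearest gene was *Scrt2* for *Eomes* (0.75), *Helt* for *Insm1* (0.53), *Elavl4* for *Myt1* (0.51), *Rundc3a* for *Hes6* (0.26) and *Fbxo9* for *Btg2* (0.36). In proliferating NSPCs *Scrt2* had mean levels of at most 0.0204 CPM and *Helt* was at 0. Their profiles there lie at the floor and cannot follow genotype differences such as that of *Insm1*. *Plpp3* was nearest to *Neurog2* (0.77) and *Cers6* to *Neurod1* (0.77). Among the members themselves *Eomes* and *Insm1* were each other's nearest (1.13, against SDs of 2.15 and 1.71), as were *Hes6* and *Btg2* (0.53). The distance of *Hes6* and *Btg2* was about as large as their own SDs of 0.52 and 0.55, so their profiles were not close. *Myt1* was nearest to *Hes6*, but at 1.84 against its own SD of 1.88, so its profile was not close to that of any other member.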

How the data were processed

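Messenger RNA of NSPCs was sequenced in 24 libraries from 3 genotypes and 2 conditions, 4 per combination. The authors made stranded polyadenylated RNA libraries, aligned the reads to mm39 with Rsubread and deposited raw read counts per gene from featureCounts with a strict RefSeq annotation. Versions and the strand setting are not given in the sources used here. Groups, replicate numbers and litters were taken from the labels. The 9 members and the gene lists were chosen with earlier results of these data known.

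Protein-coding genes (21030 of 26411; 52 genes without a biotype were left out) that passed filterByExpr (minimum count 10) were kept, without *Xist* and genes unique to the Y chromosome, and library sizes were scaled by TMM factors. With the study's methods as a guide, limma-voom with a random litter block (correlation within litters 0.287) served for the 12 proliferating libraries. For the 12 differentiating libraries limma-trend was used on log2 CPM (prior count 2), with library quality weights. Contrasts between conditions and interactions came from limma-voom over the 24 libraries, again with a random litter block (correlation 0.00363). Moderation was robust, p-values were two-sided and adjusted by the Benjamini-Hochberg method over the 12276, 13339 or 13586 genes tested, and calls were made at an FDR under 0.05. Intervals are 95% from the moderated t distribution. Printed CPM and RPKM use TMM-scaled totals without weights. Comparisons of both mutant genotypes share the *Kat6a*+/+ libraries. Within a condition, the labels give no pairing of embryos across genotypes beyond litter. Across conditions they place 6 embryos in both. The main fit of the 24 libraries did not use this pairing, since its block was litter, and embryo served as the block in an alternative only. The p-values measure the spread between cultures of single embryos.

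Named were the 9 members, *Kat6a*, from each pathway list the up to 4 genes with the smallest p for *Kat6a*-/- against *Kat6a*+/+ in each condition, and the genes of nearest profile; genes that sum up marker lists were added after their values were seen. Of the listed genes, 1 stayed in the fits and is not reported here. Fitted fold changes are not printed for members with a fitted average log2 CPM under 0 unless called, a rule added after the values were seen. Alternatives were other size factors, filters, blocks and weights, edgeR, DESeq2, litter as a fixed term and each library left out; list counts without single libraries were added after seeing the data. No 2 replicates were alike within sampling noise (lowest chi-square per degree of freedom 5.81). On simulated counts with known changes, the proliferating fit recovered 66% of genes changed 1.5-fold and 96% of those changed 4-fold, the differentiating fit 42% and 88%, and the interaction 18% and 68%. The simulation held few changed genes, none of them very low, and no litter effects or differences in library quality. These shares therefore need not hold for the real counts. R 4.3.3, limma 3.58.1, edgeR 4.0.16, DESeq2 1.42.0 and statmod 1.5.0 were used.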

Additional observations from a re-analysis of the deposited data

Results flagged for a closer look

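*Insm1* in differentiating *Kat6a*-/- replicate 4 was at 13.4 CPM, far from the other 3 libraries of the group (5.02 to 5.68 CPM). *Neurog2* was at 0.326 CPM in proliferating *Kat6a*+/- replicate 3 and at 0.11 CPM in proliferating *Kat6a*-/- replicate 3, with 0 in the other 3 libraries of each group. *Neurod4* was at 0.129 CPM in proliferating *Kat6a*-/- replicate 2 and at 0.138 CPM in differentiating *Kat6a*-/- replicate 1, again with 0 in the others. These were 5 of the 48 groups of 4 examined, in which the gap to the nearest library exceeded Dixon's critical share of the range. The rate of about 1 in 20 by chance holds for normal values and not for counts near 0. Where the other 3 libraries are at 0, any count in the remaining library passes this rule. The *Neurog2* and *Neurod4* values rest on 1 to 4 counts.

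The effect of the *Kat6a*-/- genotype differed between conditions for 3 of the 7 members with an interaction test in limma. The differences were -4.69 for *Insm1* (FDR 0.00119), whose genotype effect was positive in proliferating and negative in differentiating NSPCs, -3.68 for *Myt1* (FDR 0.021) and -1.56 for *Hes6* (FDR 0.00132). Summed markers of dividing cells also differed between the genotypes in differentiating cells, and their part in these interactions was not tested.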

How the results depend on the processing

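The calls of *Eomes*, *Insm1*, *Myt1* and *Hes6* in differentiating and of *Insm1* in proliferating *Kat6a*-/- against *Kat6a*+/+ NSPCs held in 22 of 22 alternatives. The number of members called moved as follows. In proliferating *Kat6a*-/- against *Kat6a*+/+ NSPCs it was 2 without a filter on low counts and 1 to 2 with single libraries left out. Against *Kat6a*+/- it was 1 with quality weights and 0 to 2 with libraries left out. In differentiating NSPCs it was 0 to 2 for *Kat6a*+/- against *Kat6a*+/+ with libraries left out, and for *Kat6a*-/- against *Kat6a*+/- it was 3 with litter as a fixed term, 3 with limma-voom and a litter block, and 0 to 7 with libraries left out. Between conditions in *Kat6a*-/- NSPCs it was 2 with library totals, a stricter filter or quality weights, 3 with edgeR or litter as a fixed term, 4 with DESeq2, and 1 to 2 with libraries left out. Signs turned for values that were not called. *Myt1* became 0.13 with quality weights in proliferating *Kat6a*-/- against *Kat6a*+/+, and 0.13, 0.14 and 0.16 with edgeR, DESeq2 and quality weights against *Kat6a*+/-. *Btg2* became -0.01 without weights and -0.05 with limma-voom in differentiating *Kat6a*-/- against *Kat6a*+/+, and its interaction became 0.01 with quality weights. With libraries left out, *Myt1* ranged from -0.67 to 0.19 and from -0.45 to 0.38 in the same 2 proliferating comparisons, *Insm1* from -0.08 to 0.30 and *Hes6* from -0.03 to 0.22 in proliferating *Kat6a*+/- against *Kat6a*+/+, and *Btg2* from -0.39 to 0.44, -0.65 to 0.11 and -0.03 to 0.90 in differentiating *Kat6a*-/- against *Kat6a*+/+, *Kat6a*+/- against *Kat6a*+/+ and *Kat6a*-/- against *Kat6a*+/-. The causes were not tested.

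Over all genes, the calls for differentiating *Kat6a*-/- against *Kat6a*+/+ ranged from 1785 (litter fixed) to 8304 (library totals) in place of 7258 and from 939 to 9505 with libraries left out. Against *Kat6a*+/- they ranged from 386 to 5899 and from 243 to 7397 in place of 5007. In proliferating NSPCs the ranges were 1936 to 4583 in place of 3686 and 951 to 2243 in place of 1813, with lows of 2317 and 696 when libraries were left out, and for the interaction 1559 to 4798 and 1265 to 3520 in place of 1895. With library totals the share of calls that were higher was 31.7% in place of 49.1% in differentiating *Kat6a*-/- against *Kat6a*+/+ NSPCs, where the median of all genes was -0.17 in place of -0.02, and 31.7% in place of 50.8% and 22.1% in place of 45.6% for *Kat6a*-/- against *Kat6a*+/- and for the interaction. The falls of *Eomes*, *Insm1*, *Myt1* and *Hes6* exceed that shift.

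Replicate numbers did not pair the libraries (correlations of deviations -0.468 to 0.481, 5 of 24 over 0.1). With a replicate block the members called were 1, 0 and 0 in the proliferating comparisons, 6, 0 and 6 in the differentiating ones, 6, 5 and 1 between conditions and 3 and 0 for the interactions, and 3604, 7211 and 4203 genes were called for proliferating and differentiating *Kat6a*-/- against *Kat6a*+/+ and differentiating *Kat6a*-/- against *Kat6a*+/-. Low counts limit what can be said of *Neurog1*, *Neurog2*, *Neurod1* and *Neurod4*, which had at most 53 counts in any library.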
